A study of Mus musculus with 12 samples.

Results

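The endothelial genes described here are 40 listed symbols of arterial, venous, capillary and lymphatic endothelium, the cell layer that lines every vessel, taken as 1 value per gene from probe sets annotated to a single gene. Of the 40 genes, 39 had such a probe set, each with exactly 1, out of 19938 genes measured in this way. Selp was not analysed here. The 39 genes were measured in 12 Affymetrix arrays of whole vessel tissue from untreated wild-type C57BL/6 mice aged 8 weeks, with 3 arrays for each of 4 vessels: the ascending aorta, the coronary artery, the descending aorta and the superior mesenteric artery, the artery of the small intestine. The replicates are labelled biological, with no word on the number of animals behind each. The p-values therefore cover the spread between samples alone, and 3 arrays per vessel limit their precision. The series was designed to find expression that differs with the embryonic origin of a vessel. All values are on the log2 scale, on which a difference of 1 is a doubling. In whole tissue, fewer endothelial cells and less RNA per endothelial cell cannot be told apart. A level is a mean over arrays ± SD (n = 3 per vessel), and a difference is the first-named vessel minus the second ± SE.

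Endothelial cells share a core of junction proteins, such as PECAM1 and VE-cadherin (Cdh5), and of receptors for the VEGF and angiopoietin growth factors, under the control of ETS factors such as ERG and FLI1 and of the SOXF factors SOX7, SOX17 and SOX18. Arterial, venous, capillary and lymphatic endothelium add their own genes to it: ephrin-B2 and SOX17 mark arteries, EPHB4 and NR2F2 veins, GPIHBP1 the capillaries of fat and muscle that process lipids, and PROX1, LYVE1, VEGFR3 (Flt4) and podoplanin (Pdpn) lymphatic vessels. The wall of a large artery carries such other vessels too, in its outer layer and the fat around it.

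The samples held other cell types besides vessel wall, and their marker lists moved with the vessels, as shown in the plot of list means. A list of 10 cardiomyocyte genes averaged 10.7, 10.6 and 10.8 in the coronary arrays and between 3.97 and 5.77 in the other 9 arrays. Brown adipocyte genes (5 measured of 6 listed) averaged 6.58 ± 0.32 in ascending aorta, 4.23 ± 0.35 in coronary artery, 7.34 ± 0.53 in descending aorta and 3.93 ± 0.42 in superior mesenteric artery. Single arrays stood apart as well. In ascending aorta replicate 1 the B cell list (8 of 9 genes measured) averaged 7.83, against 3.89 and 3.94 in its fellow arrays, and in superior mesenteric artery replicate 3 the pancreatic acinar list (6 of 8) averaged 9.46, against 5.22 and 3.71. The list of 10 smooth muscle genes averaged 9.13, 5.90 and 6.46 in the superior mesenteric arrays. The part of these cells in the endothelial values was not tested. Some fits given below left out arrays or took a list mean as covariate.

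**Figure D1:**
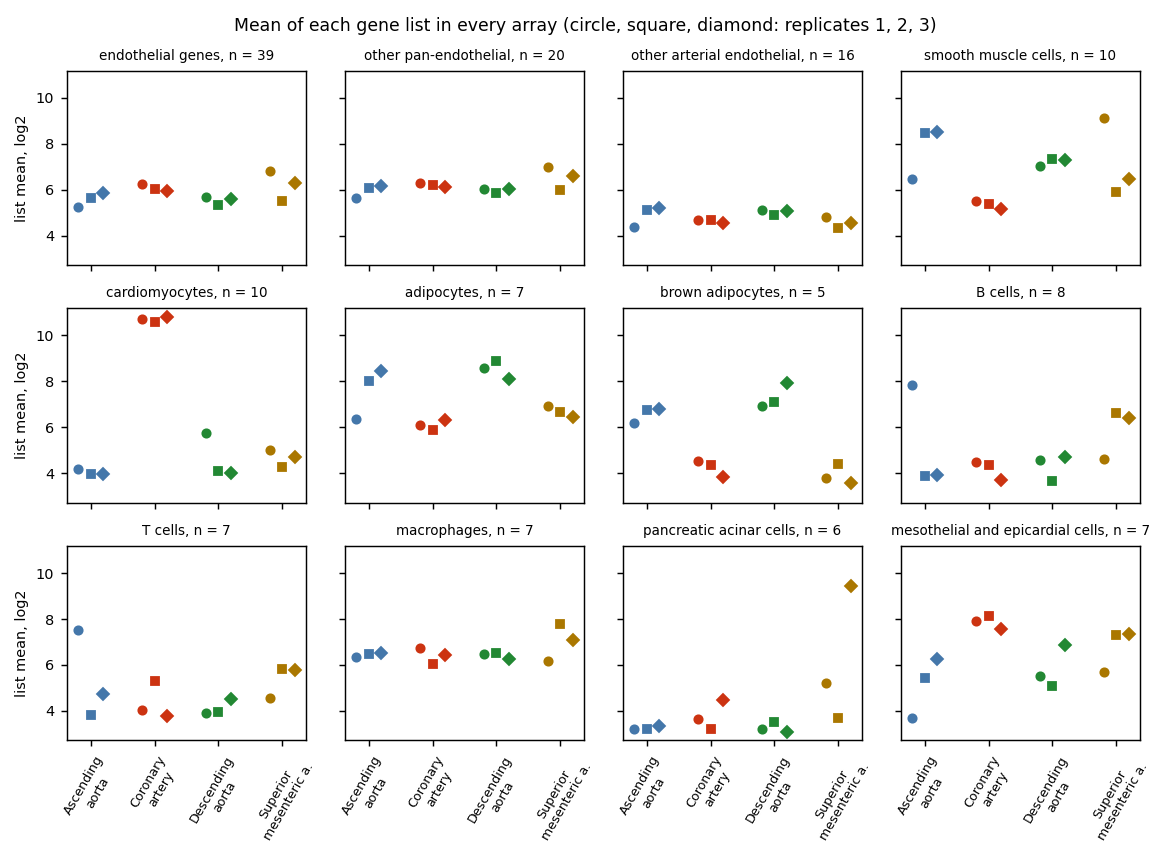
Mean log2 level (y axis) of 12 gene lists in each of the 12 arrays, grouped by vessel on the x axis; the marker shape gives the replicate. The 3 coronary arrays stand apart in cardiomyocyte genes, ascending aorta replicate 1 in B cell and T cell genes, and superior mesenteric artery replicate 3 in pancreatic acinar genes, while the mean of the 39 endothelial genes lies between 5.23 and 6.83.

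Endothelial identity was present in all 4 vessels, and Pecam1 and Cdh5, genes of the endothelial junction, did not pass limma's F test of a difference between them. Pecam1, an adhesion protein of the cell junction, had log2 values of 7.52, 8.79 and 8.998 in ascending aorta, 8.14, 7.97 and 7.55 in coronary artery, 8.41, 7.82 and 8.37 in descending aorta and 9.41, 7.30 and 8.48 in superior mesenteric artery (limma F test adjusted p = 0.853). Its vessel means lay within 0.55 of each other and the arrays of every pair of vessels overlapped. Cdh5, the cadherin that holds endothelial cells together, had 6.82, 7.10 and 7.47 in ascending aorta, 7.80, 7.48 and 7.64 in coronary artery, 6.96, 6.50 and 6.87 in descending aorta and 9.12, 6.43 and 7.81 in superior mesenteric artery (limma F test adjusted p = 0.534). One array, superior mesenteric artery replicate 1, was above all others for Cdh5. Over the 39 genes the mean was 5.23, 5.64 and 5.85 in ascending aorta, 6.24, 6.04 and 5.93 in coronary artery, 5.69, 5.32 and 5.58 in descending aorta and 6.83, 5.51 and 6.27 in superior mesenteric artery. Superior mesenteric artery replicate 1 was thus the highest of the 12 arrays and ascending aorta replicate 1 the lowest. Within the superior mesenteric arrays, replicate 1 was the highest of the 3 in 30 of the 39 genes and replicate 2 the lowest in 32, where over all genes these arrays were highest in 38.1% and lowest in 34.5%. The median SD within a vessel was 0.602 in ascending aorta, 0.243 in coronary artery, 0.297 in descending aorta and 0.84 in superior mesenteric artery for the 39 genes. Over all genes it was 0.275 in ascending aorta, 0.231 in coronary artery, 0.211 in descending aorta and 0.243 in superior mesenteric artery.

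The vessels differed in 11 of the 39 endothelial genes, or 28.2%, by limma's moderated F test over the 4 vessels at an adjusted p under 0.05, beside 4.72% of all 19938 genes. They were Kdr, Flt1, Nrp1, Emcn, Plvap, Rgcc, Aplnr, Gpihbp1, Adgrf5, Gpr182 and Tmem88. These 11 comprised 3 of 3 capillary genes, 3 of 4 VEGF receptor genes, 3 of 3 genes for other receptors and membrane proteins and 2 of 7 junction and surface genes. The remaining 28 genes had adjusted p between 0.107 and 0.98 in limma's F test, with ranges between vessel means of 0.31 to 1.96, and this does not show that they were equal. Superior mesenteric artery had the highest mean in 26 of the 39 genes and coronary artery in 8, and descending aorta the lowest in 17 and ascending aorta in 13. Over all genes, superior mesenteric artery was the highest in 25.3%, coronary artery in 27.0%, and descending and ascending aorta the lowest in 24.2% and 23.7%. The count of 11 depended on single arrays: it was 4, 6 and 5 without coronary replicate 1, 2 or 3, 5 without descending aorta replicate 2 or 3 and 6 without superior mesenteric artery replicate 3. Transcripts of another tissue were seen in ascending aorta replicate 1 (lymphoid genes), descending aorta replicate 1 (cardiomyocyte genes) and superior mesenteric artery replicate 3 (pancreatic genes). With these 3 arrays of other tissue dropped the count was 10, of which 9 were among the 11. That fit kept other arrays with such transcripts. The cardiomyocyte list averaged 10.7, 10.6 and 10.8 in the coronary arrays, and the B cell list 6.63 in superior mesenteric artery replicate 2.

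The F test of 3 of the 11 genes, Rgcc, Adgrf5 and Tmem88, passed with any 1 array left out. The others missed the threshold when 1 of these arrays was left out. For Kdr these were coronary artery replicate 1, 2 or 3, descending aorta replicate 1, 2 or 3 (limma adjusted p 0.0666 to 0.097). For Flt1 these were ascending aorta replicate 2 or 3, coronary artery replicate 1, 2 or 3, descending aorta replicate 1, 2 or 3, superior mesenteric artery replicate 3 (limma adjusted p 0.0538 to 0.102). For Nrp1 these were superior mesenteric artery replicate 2 or 3 (limma adjusted p 0.0661 to 0.0994). For Emcn these were coronary artery replicate 1, 2 or 3, descending aorta replicate 1, 2 or 3, superior mesenteric artery replicate 3 (limma adjusted p 0.068 to 0.123). For Plvap these were ascending aorta replicate 2 or 3, coronary artery replicate 1, 2 or 3, descending aorta replicate 2 or 3, superior mesenteric artery replicate 1 or 3 (limma adjusted p 0.0627 to 0.195). For Aplnr these were coronary artery replicate 1 or 3, descending aorta replicate 2 or 3 (limma adjusted p 0.0561 to 0.146). For Gpihbp1 these were coronary artery replicate 1 or 3 (limma adjusted p 0.0606 to 0.0652). For Gpr182 these were coronary artery replicate 1 or 2, descending aorta replicate 2 or 3, superior mesenteric artery replicate 3 (limma adjusted p 0.05 to 0.104).

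**Figure D2:**
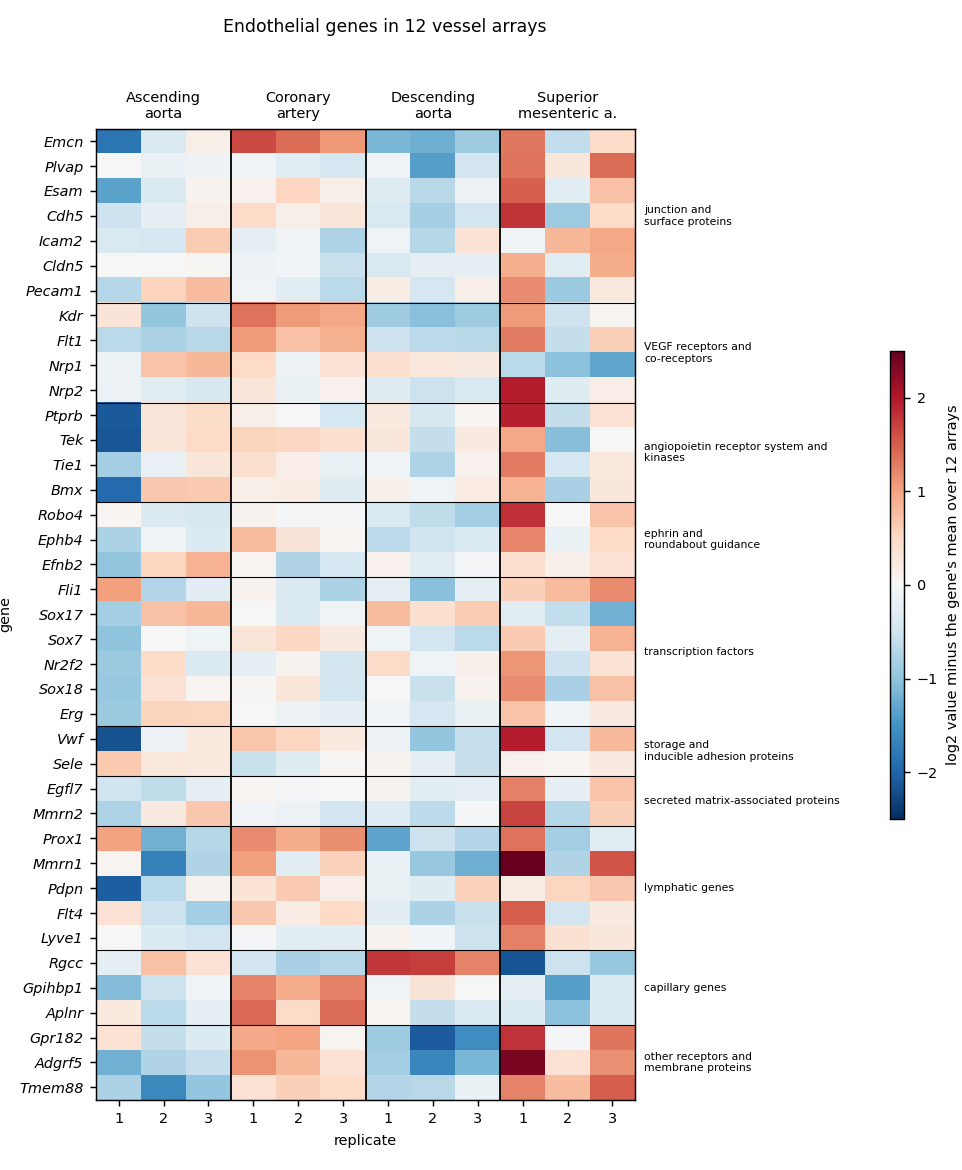
Log2 value of each of the 39 endothelial genes (rows, grouped by role) in each of the 12 arrays (columns, replicates 1 to 3 of each vessel), as the difference from the gene's mean over all arrays; red is above and blue below that mean. Kdr, Flt1, Emcn and Gpihbp1 are above their means in the 3 coronary arrays, Rgcc in the 3 descending aorta arrays, and most rows are high in superior mesenteric artery replicate 1.

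By pair, the calls fell mainly on descending aorta against the branch arteries. Between coronary artery and descending aorta, 6 of the 39 genes were higher and 1 lower in limma's fit (17.9%, beside 3.14% of all genes, or 1.53% higher and 1.61% lower), with a median difference of 0.383, against -0.007 over all genes. Arrays of the 2 vessels did not overlap in 18 genes that were higher in coronary artery and 2 that were lower, beside 9.88% and 12.5% of all genes. The cardiomyocyte list averaged 10.7 in coronary artery and 4.63 in descending aorta, and the mesothelial and epicardial list 7.87 in coronary artery and 5.83 in descending aorta. The smooth muscle list (10 genes) averaged 5.35 in coronary artery and 7.22 in descending aorta, and the adipocyte list (7 measured of 8) 6.11 in coronary artery and 8.52 in descending aorta. The part of these 4 lists in the coronary results was not tested. Between descending aorta and superior mesenteric artery, 2 genes were higher and 5 lower (17.9%, beside 3.2% of all genes, or 2.84% higher and 0.361% lower), with a median difference of -0.816, against -0.008 over all genes. This balance turned when the mean of other pan-endothelial genes was a covariate: 8 genes were then called, 6 of them higher and 2 lower, beside 3.28% and 1.69% of all genes. That mean was itself lower in descending aorta, at 5.97 ± 0.11, than in superior mesenteric artery, at 6.52 ± 0.49. Arrays did not overlap in 4 genes that were higher in descending aorta and 12 that were lower, beside 12.5% and 10.4% of all genes. The other pairs gave few calls. Ascending aorta against coronary artery gave 3 lower (7.69%, beside 2.47% of all genes, or 1.87% lower), and ascending aorta against superior mesenteric artery 1 lower (2.56%, beside 0.176% of all genes, or 0.0401% lower). Coronary against superior mesenteric artery gave 3 higher (7.69%, beside 3.24% of all genes, or 2.71% higher). Arrays did not overlap in 3 genes that were higher and 14 that were lower in ascending aorta than coronary artery, beside 8.3% and 11.0% of all genes. They did not overlap in 3 higher and 7 lower for ascending aorta against superior mesenteric artery, beside 4.73% and 4.62%, and in 3 higher and 6 lower for coronary against superior mesenteric artery, beside 11.3% and 11.1%. Between the ascending and descending aorta limma called 0 of the 39 genes, beside 0.015% of all genes, and 4 had an unadjusted p under 0.05, as had 9.64% of all genes: Gpr182 and Sele, with higher values in ascending aorta, and Rgcc and Tmem88, with lower values. Arrays of the 2 aortic segments did not overlap in 3 genes that were higher in ascending aorta and 2 that were lower, beside 6.09% and 9.62% of all genes.

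These comparisons share arrays, so their counts are not independent. Coronary artery against descending aorta, with a count of 7, gave 2, 3 and 5 when coronary replicates 1, 2 and 3 were dropped in turn, and 4, 2 and 3 when those of descending aorta were. The descending aorta against superior mesenteric count of 7 was 3 or 4 without descending aorta replicate 2 or 3, 3 without superior mesenteric replicate 3, 12 without its replicate 2 and 11 without ascending aorta replicate 1. The ascending aorta against coronary count of 3 was 7 without ascending aorta replicate 1, of which 1 was higher, 1 without coronary replicate 3, and 6 and 7 without superior mesenteric replicates 1 and 2. The ascending aorta against superior mesenteric count of 1 was 6 without ascending aorta replicate 1, of which 3 were higher and 3 lower. It was 2, of which 1 was higher, without superior mesenteric replicate 1, and 4, all lower, without its replicate 2. The coronary against superior mesenteric count of 3, all higher, was 5 without ascending aorta replicate 1, of which 3 were higher and 2 lower, and 1 without coronary replicate 1 or 3. Without superior mesenteric replicate 2 it was 4, of which 1 was higher and 3 were lower. Fitted on its own 6 arrays, coronary artery against descending aorta gave 16, of which 14 were higher and 2 lower, where that fit called 6.32% of all genes, or 2.77% higher and 3.56% lower.

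**Figure D3:**
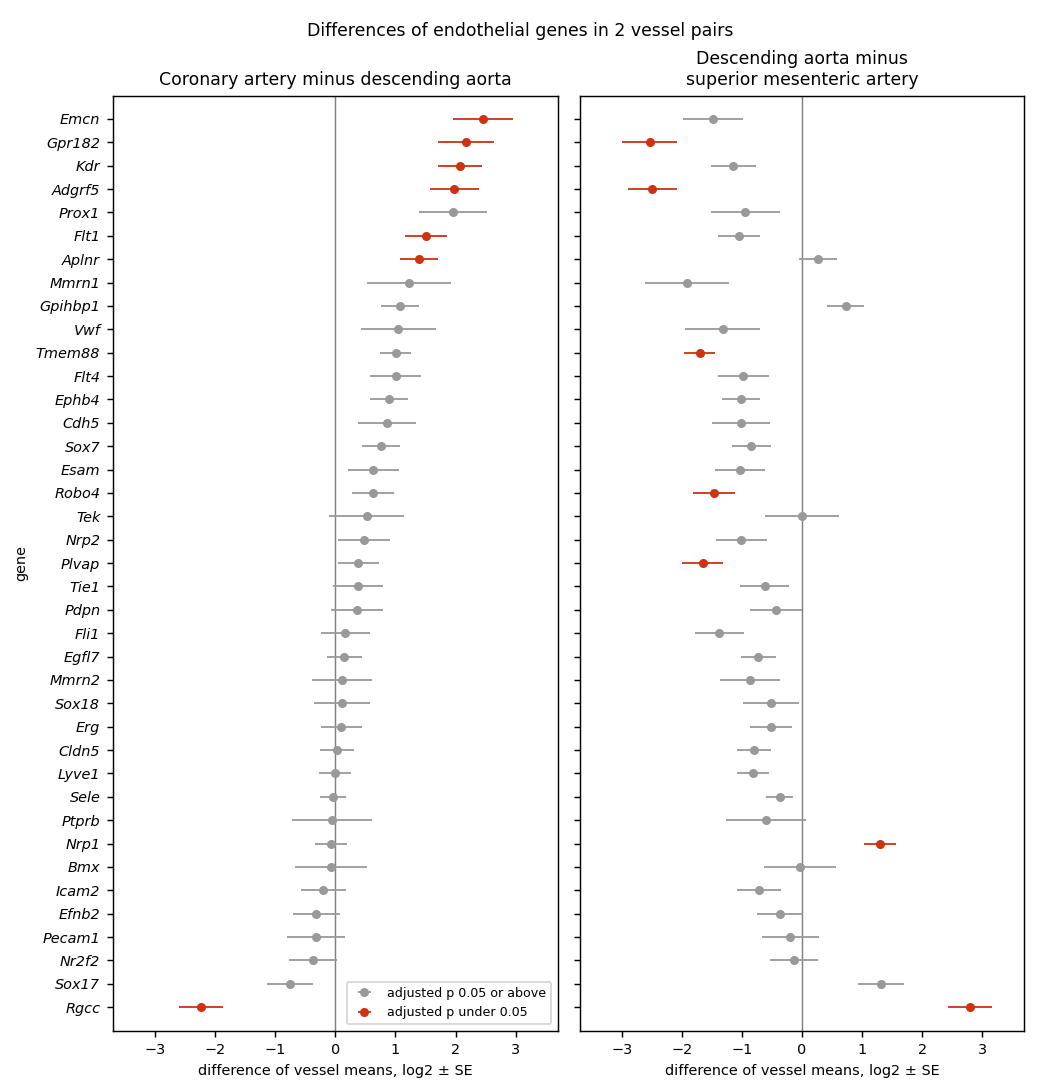
Difference of vessel means (x axis, log2 ± SE) for each of the 39 endothelial genes (y axis) in coronary artery minus descending aorta (left) and descending aorta minus superior mesenteric artery (right); red points passed an adjusted p of 0.05 in limma. Emcn, Gpr182, Kdr and Adgrf5 are the highest in coronary artery relative to descending aorta, and Rgcc is lower by 2.24 there and higher by 2.79 in descending aorta relative to superior mesenteric artery.

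Of the VEGF receptors and co-receptors, the receptors Kdr and Flt1 were higher in coronary artery than in descending aorta, while the co-receptor Nrp1 was lower in superior mesenteric artery than in coronary artery and descending aorta. Kdr encodes VEGFR2, the main signalling receptor for VEGF-A. Its log2 values were 4.71, 3.42 and 3.87 in ascending aorta, 5.75, 5.46 and 5.35 in coronary artery, 3.50, 3.34 and 3.50 in descending aorta and 5.45, 3.86 and 4.46 in superior mesenteric artery. The 3 coronary arrays exceeded those of both aortic segments, and superior mesenteric replicate 1 lay among them. For Kdr, ascending aorta against coronary artery did not pass limma's test with all arrays. For coronary artery against descending aorta the difference was 2.07 ± 0.37 (limma adjusted p = 0.00764), a 4.21-fold higher level. The descending aorta values lay below the median of all genes in their arrays (4.08, 4.04 and 4.06), so this fold was taken against a low level. Flt1, which encodes VEGFR1, a receptor that binds VEGF-A tightly and signals weakly, had 4.56, 4.45 and 4.54 in ascending aorta, 6.29, 5.97 and 6.11 in coronary artery, 4.71, 4.58 and 4.54 in descending aorta and 6.52, 4.64 and 5.83 in superior mesenteric artery. No aortic array exceeded 4.71 and no coronary array was below 5.97. Ascending aorta was lower than coronary artery by 1.61, with a difference of -1.61 ± 0.35 (limma adjusted p = 0.03), and coronary artery was higher than descending aorta by 1.51 ± 0.35 (limma adjusted p = 0.0348).

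Nrp1, a co-receptor for VEGF and semaphorins that is also made by smooth muscle, had 6.31, 7.15 and 7.27 in ascending aorta, 6.94, 6.30 and 6.78 in coronary artery, 6.85, 6.71 and 6.66 in descending aorta and 5.76, 5.42 and 5.14 in superior mesenteric artery. No superior mesenteric array reached the level of any array of another vessel. The difference was 1.23 ± 0.27 (limma adjusted p = 0.0244) for coronary and 1.30 ± 0.27 (limma adjusted p = 0.0196) for descending aorta against superior mesenteric artery, and 1.47 ± 0.27 (limma adjusted p = 0.0622) for ascending aorta. Nrp2, the co-receptor of venous and lymphatic endothelium, ranged from 4.29 to 6.78, the highest value being that of superior mesenteric replicate 1 (limma F test adjusted p = 0.468). The coronary against descending aorta call of Kdr was kept when any 1 array was left out. That of Flt1 missed the threshold without any 1 coronary or descending aorta array or without superior mesenteric replicate 3 (limma adjusted p 0.0509 to 0.133). Its ascending aorta call missed it without any 1 coronary or descending aorta array or without ascending aorta replicate 2 or 3 (limma adjusted p 0.0505 to 0.113). Without the 3 arrays of other tissue neither Flt1 call passed (limma adjusted p = 0.0776 against descending aorta and 0.069 for ascending aorta). Nrp1 missed it for coronary artery without coronary replicate 1 or 3 or superior mesenteric replicate 2 or 3 (limma adjusted p 0.0725 to 0.115), and for descending aorta without any 1 descending aorta array or superior mesenteric replicate 2 or 3 (limma adjusted p 0.0573 to 0.0904).

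Among the junction and surface genes, Emcn and Plvap differed between vessels. Emcn encodes endomucin, a sialomucin of capillary and venous endothelium. Its values were 5.21, 6.69 and 7.19 in ascending aorta, 8.70, 8.44 and 8.12 in coronary artery, 5.90, 5.83 and 6.16 in descending aorta and 8.37, 6.43 and 7.53 in superior mesenteric artery. All coronary arrays were above all arrays of both aortic segments, and superior mesenteric replicate 1 lay within the coronary range. For Emcn, ascending aorta against coronary artery did not pass limma's test with all arrays. Coronary artery was higher than descending aorta by 2.46 ± 0.50 (limma adjusted p = 0.0162), or 5.49-fold. Plvap, which forms the diaphragms of fenestrated endothelium and transport vesicles, had 5.60, 5.42 and 5.46 in ascending aorta, 5.52, 5.29 and 5.13 in coronary artery, 5.49, 4.20 and 5.10 in descending aorta and 6.92, 5.86 and 6.97 in superior mesenteric artery. The 3 superior mesenteric arrays were above the other 9. Descending aorta was lower than superior mesenteric artery, with a difference of -1.65 ± 0.34 (limma adjusted p = 0.0187). Esam, Cldn5 and Icam2, genes of endothelial junctions and adhesion, had ranges between vessel means of 1.19, 0.80 and 0.92 and did not pass (limma F test adjusted p = 0.298, 0.313 and 0.464). Emcn did not pass between coronary artery and descending aorta without coronary replicate 1 or 2 or descending aorta replicate 1 or 2 (limma adjusted p 0.0661 to 0.0814). Plvap did not pass without descending aorta replicate 2 or 3 or superior mesenteric replicate 1 or 3 (limma adjusted p 0.052 to 0.0899), nor in the F test without the 3 arrays of other tissue (limma adjusted p = 0.0759) or after median centring (limma adjusted p = 0.0599).

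Kdr, Flt1 and Emcn were higher and Rgcc lower in coronary artery than in descending aorta, and their promoters are shown as 300 bases around the annotated start, most of them before it, 5′ to 3′ on the gene's strand, from RefSeq (GRCm38.p6); of the 40 listed genes, 23 had a promoter in that table. Capitals mark the ETS letters AGGAAG or CGGAAG on either strand. The Kdr promoter lies at chr5:75978406-75978705 on the minus strand, that of Flt1 at chr5:147725962-147726261 on the minus strand, that of Emcn at chr3:137340828-137341127 on the plus strand and that of Rgcc at chr14:79301586-79301885 on the minus strand.
Kdr: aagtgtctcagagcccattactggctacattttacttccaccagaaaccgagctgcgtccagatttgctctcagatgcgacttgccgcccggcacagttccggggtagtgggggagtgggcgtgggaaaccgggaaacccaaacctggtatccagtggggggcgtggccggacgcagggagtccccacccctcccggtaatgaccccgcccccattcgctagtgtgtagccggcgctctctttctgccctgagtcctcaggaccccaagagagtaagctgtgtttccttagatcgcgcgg
Flt1: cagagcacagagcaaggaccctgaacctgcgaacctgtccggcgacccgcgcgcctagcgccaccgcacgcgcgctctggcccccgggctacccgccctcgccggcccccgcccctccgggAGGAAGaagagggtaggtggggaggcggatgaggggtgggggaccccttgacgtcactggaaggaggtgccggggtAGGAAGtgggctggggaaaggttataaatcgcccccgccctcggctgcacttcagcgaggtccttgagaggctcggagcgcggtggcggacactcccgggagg
Emcn: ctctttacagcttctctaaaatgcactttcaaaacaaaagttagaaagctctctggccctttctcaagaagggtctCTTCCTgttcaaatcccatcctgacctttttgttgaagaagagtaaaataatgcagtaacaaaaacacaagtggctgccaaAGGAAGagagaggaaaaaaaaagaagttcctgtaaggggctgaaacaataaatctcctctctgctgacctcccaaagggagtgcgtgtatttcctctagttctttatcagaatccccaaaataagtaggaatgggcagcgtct
Rgcc: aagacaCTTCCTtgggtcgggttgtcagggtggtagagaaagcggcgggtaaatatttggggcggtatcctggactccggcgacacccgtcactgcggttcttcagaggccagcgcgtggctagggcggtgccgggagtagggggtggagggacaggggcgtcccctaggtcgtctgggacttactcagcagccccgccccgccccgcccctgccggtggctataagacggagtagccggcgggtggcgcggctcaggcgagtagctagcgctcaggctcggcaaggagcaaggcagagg
The ETS letters were found at 2 places in the Flt1 promoter, 2 in that of Emcn, 1 in that of Rgcc and 0 in that of Kdr. Counted by gene, they stood in a promoter of 12 of the 23 listed genes. Counted by promoter, they stood in 46.5% of the 32851 promoters searched, so the 2 shares have unlike units. Promoters of 1 chromosome were left out of the search. The SOX letters ACAATG or ACAAAG, searched likewise, stood in 0 of these 4, in 7 of the 23 genes and in 28.6% of all promoters. Such matches describe the letters in this window only.

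The capillary genes went in 2 directions. Aplnr was higher in coronary artery than in descending aorta and superior mesenteric artery, Gpihbp1 higher in coronary artery than in ascending aorta and superior mesenteric artery, and Rgcc higher in descending aorta than in coronary and superior mesenteric artery. Aplnr, the receptor for apelin, had 4.57, 3.66 and 4.08 in ascending aorta, 5.75, 4.80 and 5.72 in coronary artery, 4.38, 3.73 and 3.98 in descending aorta and 3.98, 3.31 and 3.98 in superior mesenteric artery. Each coronary array was above every array of the other vessels. Coronary artery was higher than descending aorta by 1.39 ± 0.32 (limma adjusted p = 0.0331) and higher than superior mesenteric artery by 1.66 ± 0.32 (limma adjusted p = 0.0121). Ascending aorta against coronary artery did not pass, with a difference of -1.32 ± 0.32 (limma adjusted p = 0.0515). Gpihbp1, which carries lipoprotein lipase to the capillary surface, had 5.92, 6.46 and 6.92 in ascending aorta, 8.25, 7.93 and 8.27 in coronary artery, 6.90, 7.32 and 6.98 in descending aorta and 6.77, 5.62 and 6.63 in superior mesenteric artery. Here too the coronary arrays were above all others. The difference was -1.71 ± 0.31 (limma adjusted p = 0.0105) for ascending aorta against coronary artery and 1.81 ± 0.31 (limma adjusted p = 0.00603) for coronary against superior mesenteric artery, a 3.5-fold higher level in coronary artery. Coronary artery against descending aorta did not pass, at 1.08 ± 0.31 (limma adjusted p = 0.103).

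Rgcc, a regulator of the cell cycle, had 6.59, 7.55 and 7.18 in ascending aorta, 6.36, 6.004 and 6.11 in coronary artery, 8.58, 8.55 and 8.05 in descending aorta and 4.66, 6.28 and 5.87 in superior mesenteric artery. The 3 descending aorta arrays were above all 9 others, and no superior mesenteric array reached an ascending aorta array. Coronary artery was lower than descending aorta, with a difference of -2.24 ± 0.37 (limma adjusted p = 0.00412), and descending aorta was higher than superior mesenteric artery by 2.79 ± 0.37 (limma adjusted p = 0.00175), or 6.92-fold. Ascending against descending aorta did not pass, at -1.29 ± 0.37 (limma adjusted p = 0.407). Brown adipocyte genes had the same order of vessel means as Rgcc, highest in descending aorta and lowest in superior mesenteric artery, and the adipocyte list (7 genes measured of 8) averaged 7.61 in ascending aorta, 6.11 in coronary artery, 8.52 in descending aorta and 6.68 in superior mesenteric artery; their part in the Rgcc result was not tested. Both Rgcc calls were kept when any 1 array was left out. Aplnr did not pass against descending aorta without coronary replicate 1 or 3 or any 1 descending aorta array (limma adjusted p 0.0505 to 0.162), nor against superior mesenteric artery without coronary replicate 1 or 3 or superior mesenteric replicate 2 (limma adjusted p 0.0512 to 0.0724). Gpihbp1 missed the threshold for ascending aorta against coronary artery without coronary replicate 3 (limma adjusted p = 0.0595).

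**Figure D4:**
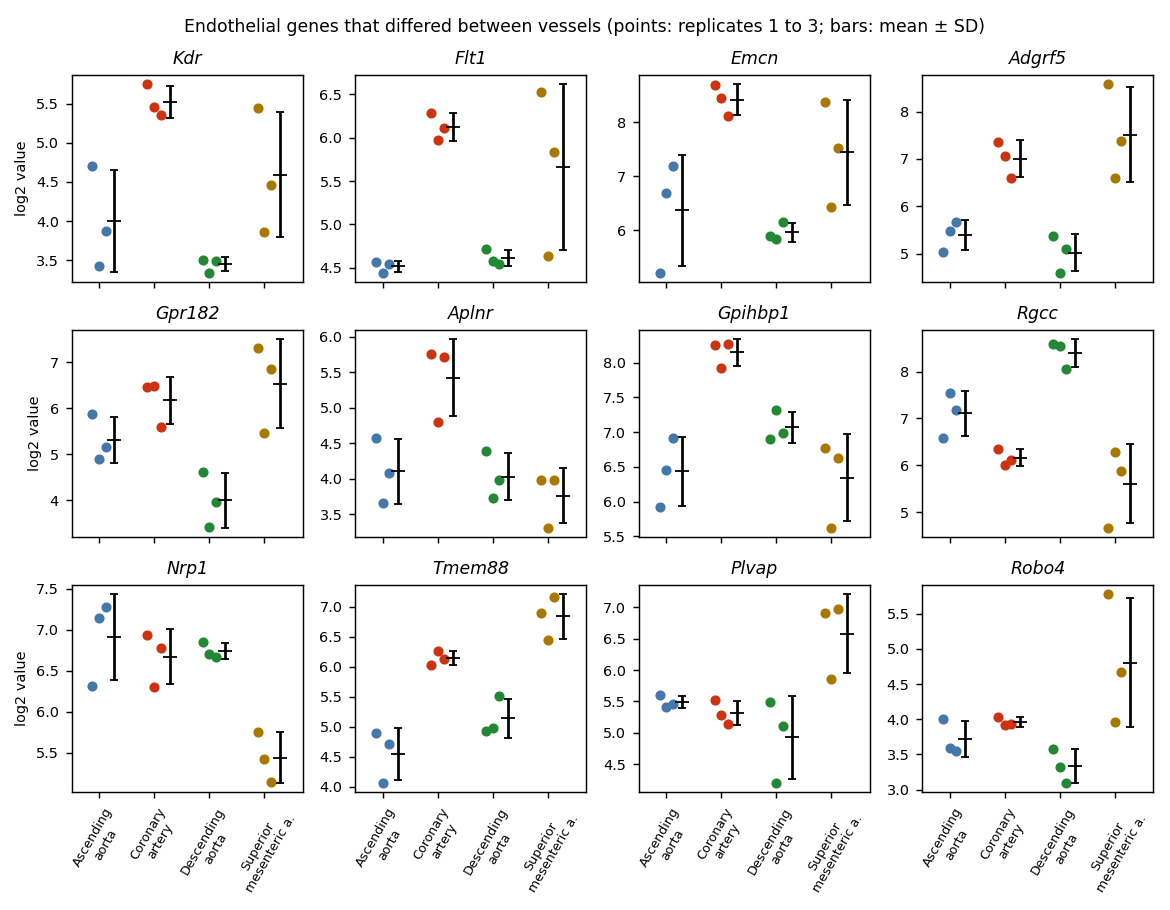
Log2 values (y axis, scaled per gene) of the 12 endothelial genes called in the F test or in a pair of vessels, by vessel on the x axis; points are replicates 1 to 3 from left to right and the bars are mean ± SD. Coronary points lie above all aortic points for Kdr, Flt1 and Emcn, descending aorta points above all others for Rgcc, and superior mesenteric points below all others for Nrp1.

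The genes for other receptors and membrane proteins were all 3 lower in descending aorta than in superior mesenteric artery. Tmem88, a membrane protein that restrains Wnt signalling through Dishevelled, had 4.89, 4.06 and 4.71 in ascending aorta, 6.03, 6.26 and 6.14 in coronary artery, 4.93, 4.98 and 5.51 in descending aorta and 6.90, 6.44 and 7.17 in superior mesenteric artery. No vessels overlapped, with ascending aorta lowest, then descending aorta, coronary artery and superior mesenteric artery. The 2 aortic segments did not pass limma's test against each other (-0.59 ± 0.26, limma adjusted p = 0.508), nor did coronary against superior mesenteric artery (-0.70 ± 0.26, limma adjusted p = 0.215). Ascending aorta was lower than coronary artery, with a difference of -1.59 ± 0.26 (limma adjusted p = 0.00452), and lower than superior mesenteric artery, with a difference of -2.29 ± 0.26 (limma adjusted p = 0.00472). Descending aorta against superior mesenteric artery gave -1.70 ± 0.26 (limma adjusted p = 0.00351). Adgrf5, an adhesion G protein-coupled receptor also called GPR116, had 5.04, 5.48 and 5.67 in ascending aorta, 7.36, 7.07 and 6.59 in coronary artery, 5.37, 4.61 and 5.10 in descending aorta and 8.58, 6.59 and 7.37 in superior mesenteric artery. Every coronary and superior mesenteric array was above every aortic array, but ascending aorta did not pass limma's test against either vessel with all arrays. Coronary artery was higher than descending aorta by 1.98 ± 0.41 (limma adjusted p = 0.0198), and descending aorta lower than superior mesenteric artery, with a difference of -2.49 ± 0.41 (limma adjusted p = 0.0059).

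Gpr182, an atypical chemokine receptor of lymphatic and sinusoidal endothelium, had 5.87, 4.90 and 5.17 in ascending aorta, 6.45, 6.49 and 5.58 in coronary artery, 4.62, 3.42 and 3.96 in descending aorta and 7.31, 5.45 and 6.85 in superior mesenteric artery. Descending aorta was below all other arrays in each of its replicates, including those of ascending aorta, whose replicate 1 overlapped the coronary range. Coronary artery was higher than descending aorta by 2.18 ± 0.46 (limma adjusted p = 0.0227) and descending aorta lower than superior mesenteric artery, with a difference of -2.54 ± 0.46 (limma adjusted p = 0.0104), or 5.8-fold. Descending aorta replicates 2 and 3 lay below the median of all genes in their array (4.04 and 4.06). All 3 calls of Tmem88 were kept when any 1 array was left out, but that for ascending aorta against superior mesenteric artery was not when its own 6 arrays were fitted alone (limma adjusted p = 0.324). Adgrf5 did not pass for coronary artery against descending aorta without coronary replicate 1 or 2 or descending aorta replicate 2 or 3 (limma adjusted p 0.0627 to 0.114). Gpr182 did not pass there without the same arrays (limma adjusted p 0.0792 to 0.127), nor for descending aorta against superior mesenteric artery without descending aorta replicate 2 or superior mesenteric replicate 3 (limma adjusted p 0.0556 to 0.0715).

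The angiopoietin receptor genes and related kinases gave 0 calls in limma's F test, also at an unadjusted p under 0.05. Tek, the angiopoietin receptor TIE2, had 3.90, 6.33 and 6.52 in ascending aorta, 6.59, 6.54 and 6.46 in coronary artery, 6.32, 5.44 and 6.26 in descending aorta and 6.99, 4.97 and 6.05 in superior mesenteric artery (limma F test adjusted p = 0.785). Ascending aorta replicate 1 was below all others, and the remaining 11 arrays lay between 4.97 and 6.99. With the mean of other pan-endothelial genes as a covariate, Tek was higher in coronary artery than in superior mesenteric artery by 1.43 ± 0.35 (limma adjusted p = 0.0365). It was higher in descending aorta than there by 1.56 ± 0.41 (limma adjusted p = 0.0474). Without the covariate its means were 6.53 ± 0.07 in coronary artery, 6.01 ± 0.49 in descending aorta and 6.01 ± 1.01 in superior mesenteric artery. Ptprb, the phosphatase that restrains TIE2, had 5.18, 7.58 and 7.73 in ascending aorta, 7.42, 7.28 and 6.82 in coronary artery, 7.51, 6.88 and 7.31 in descending aorta and 9.22, 6.67 and 7.64 in superior mesenteric artery (limma F test adjusted p = 0.779). It had the same lowest and highest arrays as Tek. Tie1, the co-receptor of TIE2, and Bmx, a kinase of arterial endothelium, had ranges between vessel means of 0.62 and 0.31, and that of Bmx was the smallest of the 39 genes.

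Among the guidance genes, Robo4, a roundabout receptor that stabilises vessels, was lower in descending aorta than in superior mesenteric artery. Its values were 4.01, 3.59 and 3.55 in ascending aorta, 4.04, 3.92 and 3.93 in coronary artery, 3.58, 3.32 and 3.10 in descending aorta and 5.77, 3.95 and 4.67 in superior mesenteric artery. Superior mesenteric replicate 1 was the highest array and replicate 2 lay within the coronary and ascending range. Only superior mesenteric replicates 1 and 3 were above the median of all genes in their array (4.18 and 4.10). The difference was -1.47 ± 0.35 (limma adjusted p = 0.0414), but the F test did not pass (limma F test adjusted p = 0.107), and the call was lost in 10 of the 12 fits with 1 array left out (limma adjusted p 0.0521 to 0.155), kept without ascending aorta replicate 1 or superior mesenteric replicate 2, and smallest, at -0.98, without superior mesenteric replicate 1. The arterial ligand Efnb2 and its venous receptor Ephb4 did not pass, though Ephb4 did with array weights or the lymphoid covariate and Robo4 with array weights. Efnb2 averaged 6.23 ± 0.99 in ascending aorta, 5.71 ± 0.41 in coronary artery, 6.03 ± 0.19 in descending aorta and 6.39 ± 0.15 in superior mesenteric artery (limma F test adjusted p = 0.688). Ephb4 averaged 4.96 ± 0.35 in ascending aorta, 5.76 ± 0.37 in coronary artery, 4.86 ± 0.15 in descending aorta and 5.89 ± 0.69 in superior mesenteric artery (limma F test adjusted p = 0.133).

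None of the 6 transcription factor genes passed limma's F test, and 3 had an unadjusted p under 0.05, as had 16.4% of all genes: Fli1, Sox7 and Sox17. Fli1 and Sox17 passed with array weights, and Erg and Sox17 with the lymphoid list mean as a covariate, fits that called 9.12% and 6.41% of all genes. Erg, the ETS factor that maintains endothelial identity, averaged between 6.21 in descending aorta and 6.72 in superior mesenteric artery (limma F test adjusted p = 0.766). Fli1, an ETS factor of endothelial and blood cells, had 7.23, 5.47 and 5.92 in ascending aorta, 6.29, 5.85 and 5.42 in coronary artery, 5.95, 5.15 and 5.95 in descending aorta and 6.80, 6.999 and 7.38 in superior mesenteric artery (limma F test adjusted p = 0.195). Its highest arrays were ascending aorta replicate 1 and superior mesenteric replicates 2 and 3, which were also the 3 highest in the B cell list, at 7.83, 6.63 and 6.42, against at most 4.71 elsewhere; the part of blood cells was not tested.

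Sox17, the SOXF factor of arterial endothelium, had 3.03, 4.62 and 4.71 in ascending aorta, 3.89, 3.51 and 3.79 in coronary artery, 4.67, 4.29 and 4.51 in descending aorta and 3.60, 3.27 and 2.68 in superior mesenteric artery (limma F test adjusted p = 0.224). Ascending aorta replicate 1 was apart from its fellow arrays, and without the 3 arrays of other tissue Sox17 passed the F test (limma adjusted p = 0.0185), with ascending aorta higher than coronary artery by 0.94 ± 0.21 and than superior mesenteric artery by 1.23 ± 0.23 (limma adjusted p = 0.0374 and 0.0252), and descending aorta higher than superior mesenteric artery by 0.96 ± 0.23 (limma adjusted p = 0.0457). Sox7 averaged 4.36 ± 0.56 in ascending aorta, 5.07 ± 0.15 in coronary artery, 4.31 ± 0.29 in descending aorta and 5.15 ± 0.58 in superior mesenteric artery (limma F test adjusted p = 0.244). Sox18 and the venous factor Nr2f2 had ranges between vessel means of 0.54 and 0.58 (limma F test adjusted p = 0.842 and 0.724).

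The 5 lymphatic genes gave 0 calls in limma's F test, and 4 had an unadjusted p under 0.05, beside 16.4% of all genes. Lyve1 and Mmrn1 passed with the replicate block and Prox1 with array weights, fits that called 4.55% and 9.12% of all genes. Prox1, the transcription factor of lymphatic identity, which heart muscle also expresses, had 5.12, 2.91 and 3.41 in ascending aorta, 5.31, 5.06 and 5.27 in coronary artery, 2.80, 3.59 and 3.38 in descending aorta and 5.48, 3.27 and 3.84 in superior mesenteric artery (limma F test adjusted p = 0.233). The 3 coronary arrays lay together, with ascending aorta replicate 1 among them and superior mesenteric replicate 1 above them. Without the 3 arrays of other tissue ascending aorta was lower than coronary artery, with a difference of -2.05 ± 0.48 (limma adjusted p = 0.046), while the F test did not pass in that fit (limma adjusted p = 0.0783). The coronary arrays were also those with cardiomyocyte genes, whose part in the Prox1 value was not tested. Flt4, the receptor for VEGF-C, averaged 3.77 ± 0.63 in ascending aorta, 4.56 ± 0.25 in coronary artery, 3.56 ± 0.25 in descending aorta and 4.54 ± 1.004 in superior mesenteric artery (limma F test adjusted p = 0.374). Lyve1, a hyaluronan receptor of lymphatic endothelium and of tissue macrophages, averaged 7.72 ± 0.26 in ascending aorta, 7.81 ± 0.14 in coronary artery, 7.82 ± 0.33 in descending aorta and 8.64 ± 0.53 in superior mesenteric artery (limma F test adjusted p = 0.152). Pdpn, a mucin-like protein that mesothelium and lymph node stroma express as well, lay between 4.95 in ascending aorta replicate 1 and 7.69 in superior mesenteric replicate 3 (limma F test adjusted p = 0.238). Mmrn1, multimerin 1 of platelets and lymphatic endothelium, had the widest spread within a vessel of the 39 genes, with 7.17, 3.84 and 6.16 in superior mesenteric artery, against 4.42, 3.64 and 3.37 in descending aorta.

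The storage and inducible adhesion genes and the secreted genes did not pass limma's F test, while Sele and Egfl7 had an unadjusted p under 0.05, as had 16.4% of all genes. Vwf passed with the lymphoid list mean as a covariate, and Mmrn2 with the pan-endothelial one. Vwf, the clotting protein that endothelium stores, had 4.46, 6.51 and 6.89 in ascending aorta, 7.34, 7.19 and 6.89 in coronary artery, 6.52, 5.67 and 6.08 in descending aorta and 8.60, 6.16 and 7.47 in superior mesenteric artery (limma F test adjusted p = 0.392). Ascending aorta replicate 1 was the lowest array and superior mesenteric replicate 1 the highest. Sele, the selectin of inflamed endothelium, stayed between 3.54 and 4.78 in all 12 arrays. Egfl7, a secreted protein of the endothelial matrix, had 6.25, 6.13 and 6.51 in ascending aorta, 6.81, 6.73 and 6.76 in coronary artery, 6.85, 6.47 and 6.54 in descending aorta and 8.02, 6.56 and 7.46 in superior mesenteric artery (limma F test adjusted p = 0.207). Mmrn2, an endothelial matrix protein that binds CD93, averaged between 6.14 in descending aorta and 7.01 in superior mesenteric artery (limma F test adjusted p = 0.673).

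To set the genes against the endothelial signal of each array, the fit was repeated with the mean of 20 other pan-endothelial genes, none of them among the 39, as a covariate. That mean was 5.63, 6.06 and 6.14 in ascending aorta, 6.29, 6.21 and 6.11 in coronary artery, 6.01, 5.85 and 6.05 in descending aorta and 6.98, 6.00 and 6.59 in superior mesenteric artery. Its vessel means ran from 5.94 ± 0.28 in ascending aorta to 6.52 ± 0.49 in superior mesenteric artery. Differences at equal covariate therefore depend on a covariate that itself moved with the vessels. With it, 11 of the 39 genes passed limma's F test, beside 6.65% of all genes, and 9 of them were among the 11 called without it. Gpr182 and Plvap no longer passed, and Pecam1 and Mmrn2 did. At equal covariate, coronary artery was higher than descending aorta in Emcn by 1.91 ± 0.23 (limma adjusted p = 0.000354) and in Kdr by 1.90 ± 0.37 (limma adjusted p = 0.0115). Coronary artery was higher than superior mesenteric artery in Gpihbp1 by 2.19 ± 0.25 (limma adjusted p = 0.000238). Pecam1 differed by 1.17 ± 0.18 (limma adjusted p = 0.00314) between ascending aorta and coronary artery. Its means without the covariate were 8.44 ± 0.80 in ascending aorta and 7.88 ± 0.30 in coronary artery. At equal covariate Pecam1 was also higher in descending aorta than in superior mesenteric artery, by 1.11 ± 0.22 (limma adjusted p = 0.0158). Without the covariate its mean was lower in descending aorta, at 8.202 ± 0.332, than in superior mesenteric artery, at 8.396 ± 1.057. Sox17 was higher in descending aorta than in superior mesenteric artery by 1.85 ± 0.44 (limma adjusted p = 0.033). For the same pair Plvap, Robo4 and Gpr182 no longer passed, at -1.11 ± 0.37 (limma adjusted p = 0.119), -0.87 ± 0.38 (limma adjusted p = 0.245) and -1.84 ± 0.52 (limma adjusted p = 0.065).

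Endothelial genes outside the 39 were read from further lists. Of 74 measured genes in these lists, 11 passed limma's F test over the 4 vessels, beside 4.72% of all genes. In the arterial list 2 of 16 passed, Gja5 and Gkn3, both with the highest mean in descending aorta. Gja5, connexin 40 of arterial endothelium and heart conduction tissue, had 3.999, 7.86 and 7.77 in ascending aorta, 3.52, 4.69 and 5.13 in coronary artery, 7.90, 6.91 and 7.64 in descending aorta and 4.02, 3.14 and 3.71 in superior mesenteric artery (limma F test adjusted p = 0.0369). Ascending aorta replicate 1 lay with the superior mesenteric arrays, while its fellow arrays, at 7.86 and 7.77, lay within the descending aorta range. Descending aorta was higher than superior mesenteric artery by 3.86 ± 0.82 (limma adjusted p = 0.0226). Gkn3, a gastrokine gene found in arterial endothelium, was higher in descending aorta than in superior mesenteric artery by 2.68 ± 0.50 (limma adjusted p = 0.0117) and coronary artery was lower than descending aorta, with a difference of -2.13 ± 0.50 (limma adjusted p = 0.0381). In the pan-endothelial list 1 of 20 passed, Calcrl, the receptor for adrenomedullin, at 8.09 ± 0.18 in coronary artery and 6.65 ± 0.40 in descending aorta (1.44 ± 0.29, limma adjusted p = 0.0143). Its mean was 8.44 ± 0.62 in superior mesenteric artery, against which descending aorta was also lower (-1.80 ± 0.29, limma adjusted p = 0.00492).

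The remaining endothelial lists gave 1 to 3 calls each. Of 7 venous genes Procr, the endothelial protein C receptor, passed and was lower in coronary than in superior mesenteric artery (-1.54 ± 0.28, limma adjusted p = 0.00874). Of 11 capillary genes Fabp4 and Timp4 passed; Fabp4, a fatty acid binding protein that adipocytes express most, was higher in ascending aorta than in coronary artery (1.005 ± 0.23, limma adjusted p = 0.0378), the same direction as the adipocyte list. The list of 6 endocardial genes had 3 calls, Npr3, Tmem108 and Adgrg6. Npr3 and Tmem108 had their highest means in coronary artery. Adgrg6 was highest in superior mesenteric artery, at 5.34 ± 0.40, beside 4.94 ± 0.26 in coronary artery and 3.73 ± 0.26 in descending aorta. Its difference was -1.61 ± 0.23 for descending aorta and -1.35 ± 0.23 for ascending aorta against superior mesenteric artery (limma adjusted p = 0.00234 and 0.038). Npr3, the clearance receptor for natriuretic peptides, had 3.61, 4.50 and 5.65 in ascending aorta, 7.37, 7.26 and 6.72 in coronary artery, 5.40, 4.62 and 4.68 in descending aorta and 5.01, 4.56 and 4.12 in superior mesenteric artery, and the coronary arrays were above all others (2.22 ± 0.43, limma adjusted p = 0.0127 against descending aorta). Of 5 high endothelial venule genes Chst4, a sulfotransferase, passed and was higher in coronary artery than in descending aorta (1.75 ± 0.40, limma adjusted p = 0.0345). Of 9 lymphatic genes 1 passed, Nts, which encodes neurotensin, at 3.81 ± 0.18 in coronary artery and 2.52 ± 0.27 in descending aorta (1.29 ± 0.20, limma adjusted p = 0.00277). Both means were below the medians of all genes in the arrays of these vessels, which were 4.04 to 4.09. The count of 11 was 22 without ascending aorta replicate 1, 6, 7 and 7 without coronary replicate 1, 2 or 3, and 7 without descending aorta replicate 1 or superior mesenteric replicate 3.

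Of 18 genes for ligands of these receptors, 1 passed limma's F test, Vegfb, beside 4.72% of all genes, and Angpt1 and Vegfa were called only between pairs of vessels. Vegfb, a VEGF that binds the Flt1 product, had 5.92, 7.14 and 7.06 in ascending aorta, 7.85, 7.75 and 7.75 in coronary artery, 7.01, 7.16 and 7.03 in descending aorta and 6.15, 5.83 and 5.76 in superior mesenteric artery (limma F test adjusted p = 0.00744). All coronary arrays were above all others, as for Aplnr, and both coronary artery (1.87 ± 0.27, limma adjusted p = 0.00176) and descending aorta (1.15 ± 0.27, limma adjusted p = 0.0396) were higher than superior mesenteric artery. Heart muscle expresses Vegfb, and the cardiomyocyte list was high in the same coronary arrays; its part was not tested. Angpt1, the activating ligand of TIE2, had a lower level in the ascending aorta than the coronary artery (-1.56 ± 0.36, limma adjusted p = 0.0401) and a higher one in coronary than in superior mesenteric artery (1.51 ± 0.36, limma adjusted p = 0.0388). Vegfa was higher in descending aorta than in superior mesenteric artery, at 6.97 ± 0.20 in descending aorta and 5.78 ± 0.28 in superior mesenteric artery (1.19 ± 0.25, limma adjusted p = 0.0199).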

How the data were processed

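Per the submitters' processing notes, the arrays were processed with RMA and Partek 6.6, without stating which did what. The authors deposited log2 values of 12 arrays for 35556 probe sets in a single table; background correction and the genome build are not given in the sources used here, and scanner files and detection calls were not used here. Names came from the annotation of the platform: 21789 probe sets had 1 symbol, 1621 several and 12146 none, and the last 2 kinds were left out. For 999 genes with more than 1 probe set the one with the highest mean was kept, which gave 19938 genes. By gene ID, all 39 members were found in the GRCm38.p6 gene table. Per the labels' protocols, total RNA was extracted with Trizol and cRNA was made from 6 ug.

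A model with 1 mean per vessel and 8 residual degrees of freedom was fitted to all genes with limma 3.58.1 in R 4.3.3, with Benjamini-Hochberg adjustment over all genes within the F test and each of 6 pairs, at a threshold of 0.05. The procedure was tested on simulated data. Plots used matplotlib 3.10.9 (Python 3.11.15). Members, lists, rules and alternatives were chosen with earlier results of these data known. All members are named; those called, Pecam1, Cdh5, Tek and the widest-ranging gene of each role are given in every array, and list genes only where called, at most 5 per list. Whether same-numbered samples share an animal is not stated, and the main fit did not pair them. Deviations from vessel means correlated between -0.251 and 0.0889 over 18 same-numbered pairs, 0 of them above 0.1. With 3 arrays per vessel, some of them holding transcripts of another tissue, these correlations cannot exclude a pairing. Alternatives were another normalization, a filter on dim genes, averaged probe sets, array weights, a robust trend, a replicate block, covariates, other adjustment and arrays left out.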

Additional observations from a re-analysis of the deposited data

How the results depend on the processing

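Counts below are endothelial genes called by limma, and the cause of each change was not tested. A fit without an array also changes the shared estimate of the spread, so it does not show the cause either. With array weights ascending aorta against coronary artery gave 8, ascending aorta against superior mesenteric artery 5, coronary artery against descending aorta 11, coronary against superior mesenteric artery 6, descending aorta against superior mesenteric artery 11, and the F test of the other endothelial lists 22. Array weights raised the share over all genes as well: it was 9.12% in the F test, against 4.72% without them, and in the order of the pairs above 4.45%, 2.22%, 5.49%, 5.66% and 6.8%. The count of 3 for ascending aorta against coronary artery was 5 after quantile normalization once more, after median centring and with the replicate block, 6 without the dimmest 25% of genes, without the 3 arrays of other tissue and with the lymphoid covariate, and 7 with the pan-endothelial covariate. Called genes higher in ascending aorta were Sox17 without the 3 arrays, and Pecam1 and Mmrn2 with the pan-endothelial covariate. The rest called in these 2 fits were lower. The count of 1 for ascending aorta against superior mesenteric artery was 3 without the 3 arrays, with either covariate and with adjustment over the 6 contrasts together, and 0 with only the arrays of the pair, where coronary artery against descending aorta gave 16, beside 6.32% of all genes. For ascending aorta against superior mesenteric artery, Sox17 and Nrp1 were higher and Tmem88 lower without the 3 arrays. With the pan-endothelial covariate Pecam1 and Nrp1 were higher there and Tmem88 lower. Coronary against superior mesenteric artery gave 5 with either covariate, and the other lists' F test gave 21 with the lymphoid covariate. Whether the replicate numbers pair the samples is not known. With the replicate block the F test called 12 genes, of which 10 were among the 11, and Emcn (limma adjusted p = 0.0679) and Nrp1 for coronary against superior mesenteric artery (limma adjusted p = 0.051) missed the threshold. With 1 array left out the F test called 4 to 15 of the 39 genes and 6 to 22 of the other list genes. The same fits gave 1 to 7 for ascending aorta against coronary artery, 0 to 0 against descending aorta and 1 to 6 against superior mesenteric artery. They gave 2 to 10 for coronary artery against descending aorta, 1 to 5 for coronary and 3 to 12 for descending aorta against superior mesenteric artery. Over the 11 F test calls and the 21 pairwise calls, 746 alternative values were computed, of which 622 stayed under the threshold and 124 missed it. Of the pairwise differences 0 changed direction, while an F test has none. Genes called only in an alternative are not among these values. Signal over background could not be read from the deposited values, since no detection calls were used here. The median over all genes lay between 4.04 and 4.18 in the 12 arrays.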

Other observations

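Glycam1 and Madcam1, 2 of the 5 measured genes of high endothelial venules, the vessels through which lymphocytes enter lymph nodes, had their highest values in a single array; they were singled out after their values were seen. Glycam1, a mucin-like ligand of L-selectin, had 11.16, 2.91 and 2.30 in ascending aorta, 2.73, 2.30 and 2.79 in coronary artery, 2.48, 2.53 and 3.01 in descending aorta and 2.66, 3.22 and 2.83 in superior mesenteric artery. Madcam1, an adhesion molecule of mucosal venules and lymph node stroma, had 4.96, 2.27 and 2.95 in ascending aorta, 2.54, 3.22 and 3.08 in coronary artery, 2.76, 3.21 and 2.57 in descending aorta and 2.80, 2.59 and 3.23 in superior mesenteric artery. Ascending aorta replicate 1 was the highest array for both, and the other 11 arrays of Glycam1 did not exceed 3.22. Chst4, of the same list, was highest in coronary artery. The same array was the highest in the B cell and T cell lists, at 7.83 and 7.54, and the lowest in the fibroblast list, at 5.57, where the other 11 lay between 7.04 and 7.90. Over the 39 endothelial genes it was the lowest of its vessel in 22 and the highest in 14, beside 39.4% and 37.8% of all genes.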
